A study of Mus musculus with 2 samples.

Results

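The genes described here are those whose platform symbol is Rab followed by a number, in the epithelium and the fibers of the embryonic mouse lens. The rule took 138 of 45281 probes and 70 of 19057 named genes. Of these genes 59 encode Rab GTPases, with 112 probes, and 11 carry a Rab name without being a GTPase (5 Rab11fip genes, Rab3gap1, Rab3gap2, Rab3il1, Rab3ip, Rab5if and the non-coding Rab26os) and are given apart. The series compares 2 samples, 1 of wild type lens epithelium and 1 of wild type lens fibers, both taken at stage E12.5. Total RNA was labelled with biotin and hybridised to 1-colour Illumina arrays. The sources used here give neither the strain, nor the number of embryos, nor the way the epithelium was parted from the fibers.

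Rab proteins are small GTPases that mark the membranes of the cell. Each Rab sits on its own set of compartments in the GTP-bound form, where it recruits effectors that move, tether or fuse vesicles. Exchange factors switch a Rab on, GTPase-activating proteins switch it off, and a lipid anchor added by geranylgeranyl transferase holds it on the membrane, from which GDI (GDP dissociation inhibitor) extracts it. Lens fibers elongate, add a large amount of plasma membrane and later clear their organelles, while the epithelium stays a dividing layer, so both cell types depend on membrane traffic. Mutations in RAB18 and in both RAB3GAP subunits cause Warburg Micro syndrome, of which congenital cataract is a part.

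Intensities below are quantile normalized and linear, and every ratio is fibers over epithelium. The floor of an array, below which a probe was not counted as measured, was 44.5 for epithelium and 32 for fibers. It is the 95th percentile of 1578 probes of genes taken to be silent in lens, those of keratin-associated proteins and of the olfactory, trace amine and vomeronasal receptors. A gene is read from its brightest probe, that with the highest mean over both arrays. A gene above both floors has a ratio, and a gene above 1 floor has a bound, its value on the bright array divided by the floor of the other, written "at least N-fold". With 1 array per group there is no replicate error and no test, and each ratio compares these 2 arrays. Fewer cells of a type and less RNA per cell cannot be told apart in such samples. The nearest measure of error was the spread between probes of the same gene, an SD of 0.72 in the log2 ratio. It was taken over 459 genes whose 2 brightest probes were both above both floors. In 341 of the 459 genes the 2 probes gave the same sign. Bounds are not covered by this SD.

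The tissue labels were set against marker lists. These lists were chosen with earlier results of these data known, so their agreement is not an independent check. All 12 lens fiber markers on the array lay 2-fold or more toward fibers. Of 8 lens epithelium markers, 7 lay as far toward epithelium, and Foxe3, a transcription factor that defines the lens epithelium, was below both floors. Few markers of other cell types reached a floor. Those that did were 2 of 10 for pigment cells, 2 of 6 for erythroid cells, 2 of 7 for macrophages and 1 each of 7 for retina, 8 for neurons, 9 for mesenchyme, 7 for endothelium and 6 for surface ectoderm. The retina, neuron and mesenchyme lists lay in the direction of epithelium. Their summed intensities in epithelium and fibers were 1324 and 172 for retina, 286 and 98 for neurons and 266 and 64 for mesenchyme, carried by Sfrp2, Elavl3 and Tfap2b. The part of such cells in the Rab values was not tested.

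As quantile normalized, most Rab GTPases measured on both arrays differed little between epithelium and fibers, and a few stood out in each direction. In all, 23 of 59 Rab GTPases were above at least 1 floor (39.0%, against 33.9% of all genes). Rab7, Rab21, Rab28, Rab11a and Rab14, which act on endosomes or, for Rab28, at the cilium, lay 2-fold or more toward fibers. Rab15, which also acts on endosomes, and Rab43 and Rab39, listed with the endoplasmic reticulum and the Golgi, lay as far toward epithelium. These are 5 of 23 (21.7%) and 3 of 23 (13%), where 15.6% of all 6451 measured genes lay that far toward fibers and 19.0% toward epithelium. Under some other settings, given at the end, the share toward fibers was further above that of all genes. At 1.5-fold it was close to that of all genes (6 of 23, against 24.6%). These settings recount largely the same few genes on the same 2 arrays. Of the 13 Rab GTPases above both floors, 9 differed by less than 1.5-fold (45.3% of all genes above both floors) and 3 lay past 2-fold toward fibers (14.3%) and 1 toward epithelium (17.5%). The median log2 ratio was 0.05 over the 23 Rab GTPases and 0.00 over all measured genes.

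Scaling matters for the sign and the size of small differences. A list of 17 housekeeping genes, from which Rab7 was left out, had 15 measured members with a median log2 ratio of 1.03, 8 of them past 2-fold toward fibers and 0 toward epithelium. Setting the 9 of them above both floors to a median of 0 lowered every ratio by 0.84 and the median of all measured genes to -0.59. The Rab median was then -0.69, with 4 Rab GTPases past 2-fold toward fibers (4.56% of all genes) and 8 toward epithelium (42.8% of all genes). The 9 Rab GTPases that had differed by less than 1.5-fold all lay past 1.5-fold toward epithelium, from -0.64 (Rab3d) to -1.23 (Rab11b) in log2 ratio.

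**Figure D1:**
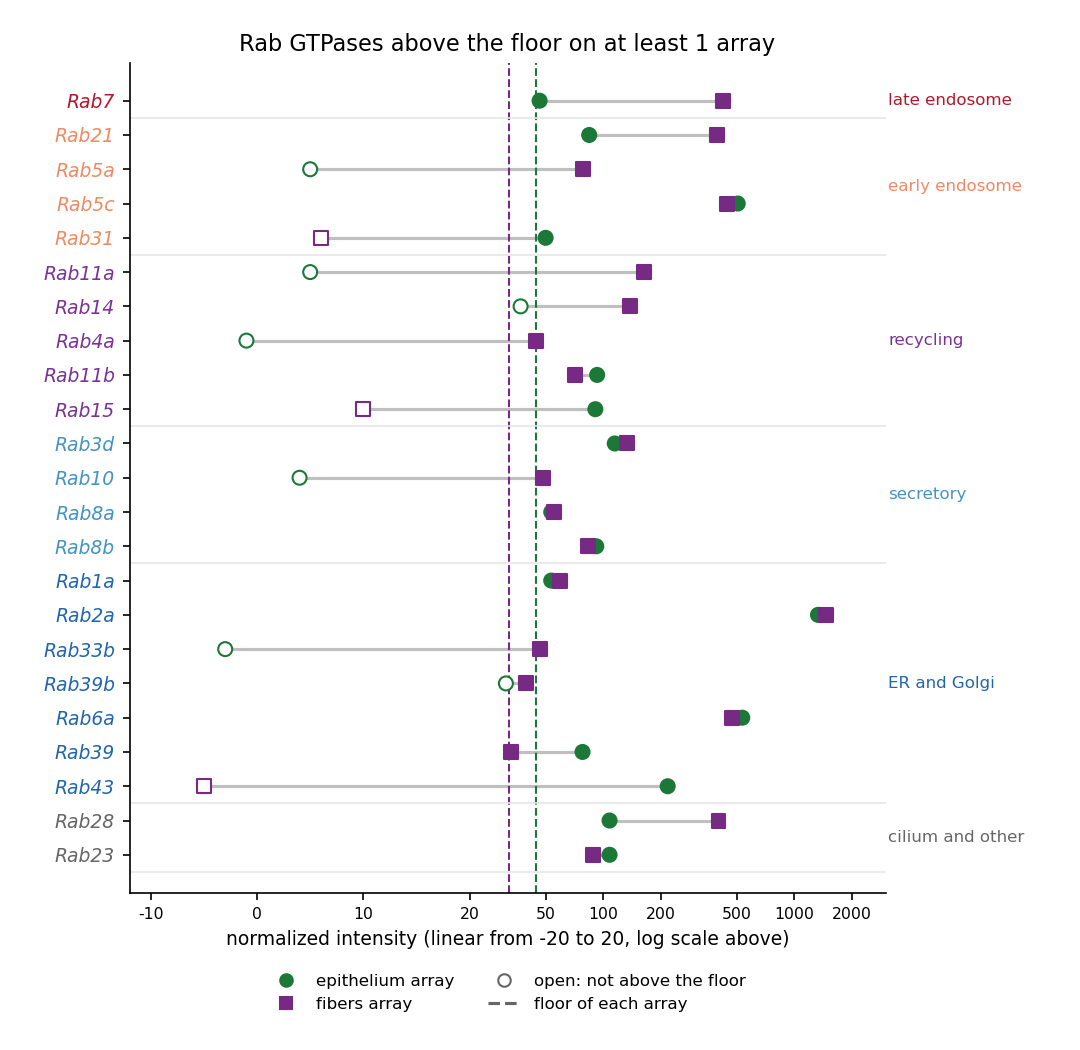
Normalized intensity of the 23 Rab GTPases above a floor, 1 point per array (circle, epithelium; square, fibers), on an axis that is linear near 0 and logarithmic above, with genes grouped by compartment. Open symbols are not above that array's floor (dashed lines, 44.5 and 32); the widest gap above both floors is that of Rab7, from 46.5 to 421.

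Late endosomes are the compartment that receives cargo bound for the lysosome, and Rab7 is the GTPase that governs their fusion with lysosomes and autophagosomes. Rab7 read 46.5 in epithelium and 421 in fibers, 9.05-fold higher in fibers (log2 ratio 3.18), rank 18 from the top among 2986 genes above both floors. The epithelium value lay just above its floor of 44.5. The other 3 Rab7 probes were below both floors, at 17 and 28, 8 and 14, and -3 and 10 in epithelium and fibers. With the mean of all 4 probes the log2 ratio was 1.41, a bound, and with housekeeping scaling it was 2.34. Of 32 silent probes above both floors, whose log2 ratios ran from -2.31 to 2.36 with a median of -0.49, 0 reached the ratio of Rab7. Among the 46 silent probes above the fibers floor alone, however, the largest bound was 10.5-fold, past the 9.05-fold of Rab7. The other Rabs listed here with late endosomes, Rab7b, Rab9 and Rab9b, were below both floors, so 1 of 4 listed members carries this compartment. Each Rab was listed with 1 compartment only, though a Rab can act on several. Rab9, which returns mannose 6-phosphate receptors to the Golgi, read 21 and 23. Rab29, Rab32 and Rab38, of lysosome-related organelles, were below both floors as well.

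Early endosomes sort newly internalised cargo. Rab21, which acts in the uptake of integrins, read 84.5 in epithelium and 395 in fibers, 4.67-fold higher in fibers (log2 ratio 2.22, rank 66 of 2986), and 1.38 on the log2 scale with housekeeping scaling. It had 1 probe, and 1 of the 32 silent probes above both floors reached its ratio. Rab5a, which drives the fusion of early endosomes, read 5 in epithelium and 78.5 in fibers, at least 1.76-fold higher in fibers. Its other probes gave no direction, 1 at 24 and 30, below both floors, and 1 at 2 and 39.5, above the fibers floor but under that of epithelium. With housekeeping scaling Rab5a had no direction. Its paralog Rab5c read 506 and 442, a log2 ratio of -0.19, within the spread between probes. Rab31, which acts between the Golgi and endosomes, read 50 and 6, at least 1.56-fold higher in epithelium. Rab5b, Rab20 and Rab22a were below both floors. The 4 measured members had a median of 0.31, or -0.52 with housekeeping scaling.

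The bases before the start of Rab7, Rab21 and Rab28, the Rab genes above both floors that lay past 2-fold toward fibers, and of Rab5a, are shown because they are where regulators of these genes could bind. They come from RefSeq (GRCm38.p6), run 5′ to 3′ on the strand of the gene and end at the base before the most upstream start. Capitals mark the motifs searched on both strands, the palindromic E-box CACGTG, its extended form, which has GT before and AC after those letters and is the consensus bound by the TFEB family of lysosomal regulators, the CCAAT box CCAAT, and TGCTGAC, a core of the Maf recognition element.
Rab7, chr6:88045271-88045520, minus strand: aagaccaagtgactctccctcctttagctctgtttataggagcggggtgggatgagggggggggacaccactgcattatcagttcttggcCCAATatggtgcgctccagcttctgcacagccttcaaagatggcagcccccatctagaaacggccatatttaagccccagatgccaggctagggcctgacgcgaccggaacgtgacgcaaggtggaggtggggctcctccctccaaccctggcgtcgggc
Rab21, chr10:115315592-115315841, minus strand: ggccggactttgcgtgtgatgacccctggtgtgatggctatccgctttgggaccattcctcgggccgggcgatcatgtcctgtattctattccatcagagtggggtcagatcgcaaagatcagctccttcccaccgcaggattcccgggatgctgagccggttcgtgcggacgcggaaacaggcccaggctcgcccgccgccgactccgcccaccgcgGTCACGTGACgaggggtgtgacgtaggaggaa
Rab28, chr5:41708180-41708429, minus strand: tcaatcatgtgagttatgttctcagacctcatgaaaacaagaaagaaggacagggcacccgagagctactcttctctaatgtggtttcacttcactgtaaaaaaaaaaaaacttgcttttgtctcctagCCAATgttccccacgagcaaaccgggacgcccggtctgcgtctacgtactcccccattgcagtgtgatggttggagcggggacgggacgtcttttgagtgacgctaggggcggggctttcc
Rab5a, chr17:53478984-53479233, plus strand: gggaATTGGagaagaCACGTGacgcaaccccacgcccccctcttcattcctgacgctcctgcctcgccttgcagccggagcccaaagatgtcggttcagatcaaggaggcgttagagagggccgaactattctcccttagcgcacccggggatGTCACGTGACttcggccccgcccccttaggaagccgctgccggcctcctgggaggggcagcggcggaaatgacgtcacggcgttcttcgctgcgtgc

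The extended E-box lay before Rab21, starting 32 bases before the start, and before Rab5a, 97 bases before it. Both act on early endosomes. Rab21 was higher in fibers by a ratio, Rab5a by a bound from 1 of its 3 probes, which gave no direction with housekeeping scaling and a log2 bound of 0.15 with the mean of its probes. The extended E-box was found before 73 of 27025 genes with windows of the same length (0.27%), and before no other of the 48 Rab GTPase genes with a window. Rab5a was added after its values and this match were seen. A second palindromic E-box stood 235 bases before the Rab5a start. The palindromic form was before 5 of the 48 Rab GTPase genes (Rab20, Rab21, Rab23, Rab27a and Rab5a) and 6.86% of all genes with a window. The window of Rab7 held a CCAAT box 160 bases before the start, that of Rab28 a CCAAT box 121 bases before it, and that of Rab5a a further CCAAT box 246 bases before it on the other strand. This motif was before 37.5% of all genes with a window and 24 of the 48 Rab GTPase genes, Rab39 of the epithelium side among them. The Maf core was before 1 Rab GTPase gene, Rab43, and before 4.31% of all genes with a window. A match describes the letters of a window and is not evidence of binding.

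**Figure D2:**
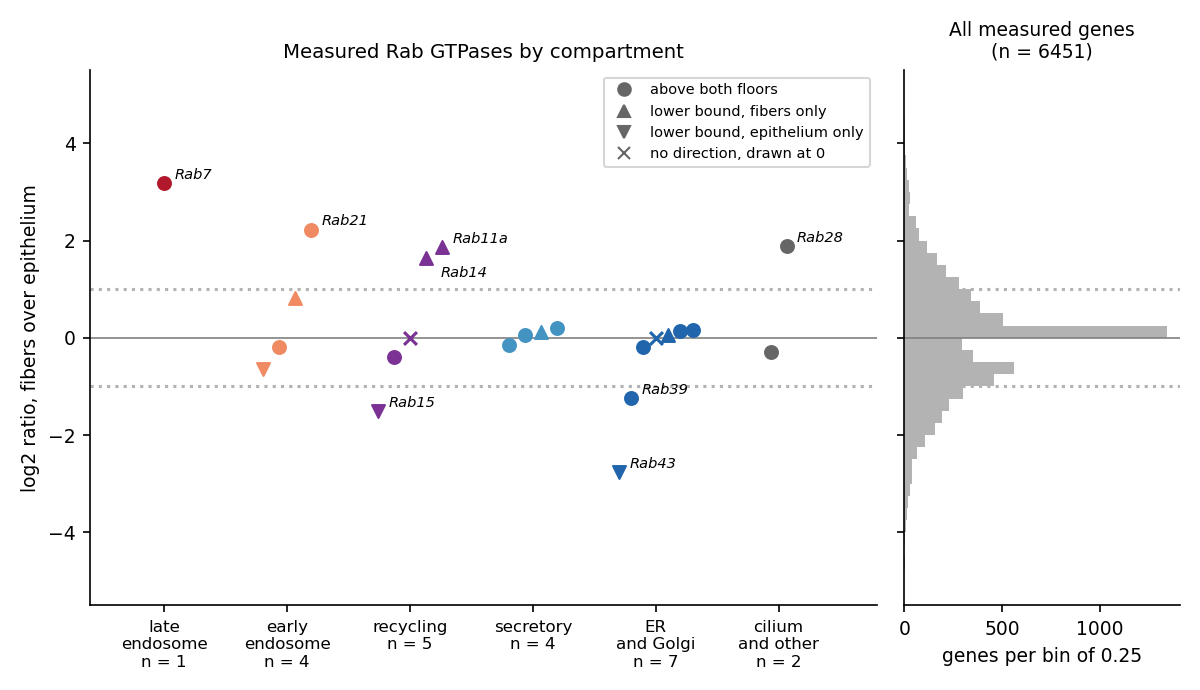
Log2 ratio of fibers over epithelium for the 23 measured Rab GTPases by compartment (left; circles above both floors, triangles lower bounds, crosses without direction drawn at 0) and the distribution over all 6451 measured genes (right), with dotted lines at 2-fold. Rab7, Rab21, Rab28, Rab11a and Rab14 lie above the upper line and Rab39, Rab15 and Rab43 below the lower one, while the 3 secretory members above both floors lie near 0 and Rab10 is a lower bound.

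Recycling endosomes return membrane and receptors to the cell surface, and their Rabs went both ways. Rab11a, the best known Rab of this compartment, read 5 in epithelium and 163 in fibers, at least 3.66-fold higher in fibers, or 1.03 on the log2 scale with housekeeping scaling. Rab14, which acts between the Golgi and endosomes, read 37 and 138, at least 3.11-fold higher in fibers. The call for Rab14 ended with housekeeping scaling (0.80), with the 99th percentile floor (0.33) and with the mean of its 3 probes, which gave no direction; its other probes read 28 and -5, and -3 and -6. Rab11b, a close paralog of Rab11a, read 93 and 71, a log2 ratio of -0.39. So within this pair Rab11a was above the fibers floor alone and Rab11b above both floors with the lower value in fibers.

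Rab15, an endosomal Rab that acts in receptor recycling, read 91 in epithelium and 10 in fibers, at least 2.84-fold higher in epithelium. Rab4a, a Rab of fast recycling, read -1 and 44.5, above the fibers floor but with no direction, since 44.5 does not exceed the epithelium floor. Rab4b, Rab12, Rab17, Rab25 and Rab35 were below both floors. Over the 5 measured members the median was 0.00, with 2 past 2-fold toward fibers and 1 toward epithelium. Bounds of this size also occurred among silent probes. Of 46 silent probes above the fibers floor alone, 2 reached the bound of Rab11a and 3 that of Rab14, and of 46 above the epithelium floor alone, 13 reached that of Rab15.

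Of the 13 secretory Rabs, which carry vesicles to the plasma membrane, 4 were measured, and the 3 above both floors had small ratios. Rab3d, a Rab of secretory granules, read 115 and 132, a log2 ratio of 0.20, which was -0.64 with housekeeping scaling. Rab8a, which acts in delivery to the surface and the cilium, read 53.5 and 55.5 (0.05), and its paralog Rab8b 92 and 83.5 (-0.14). A second Rab8b probe disagreed: it read 36 and 130, at least 2.92-fold higher in fibers, so Rab8b has no settled direction. Rab10, of basolateral transport, read 4 and 48.5, at least 1.09-fold higher in fibers, a lower bound that does not show how near to equal it was (log2 ratio 1.16 with no floor). By their brightest probes 0 of the 4 were past 2-fold in either direction and the median was 0.09, or -0.71 with housekeeping scaling. The Rabs of regulated exocytosis Rab3a, Rab3b, Rab3c, Rab26, Rab27a, Rab27b and Rab37 were all below both floors, as were Rab13 and Rab44.

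The Rabs listed with the endoplasmic reticulum and the Golgi included several close to equal. Rab2a, which acts in early secretory transport, read 1329 and 1468, a log2 ratio of 0.14. Rab6a, of transport within and from the Golgi, read 534 and 470 (-0.19), and Rab1a, of transport from the endoplasmic reticulum to the Golgi, 53.5 and 59.5 (0.15). With housekeeping scaling these were -0.70, -1.03 and -0.69. Second probes of Rab6a (-2 and 76.5) and Rab1a (23 and 62.5) were above the fibers floor alone, so the Rab6a probes differ in sign.

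Rab43, which acts in traffic through the Golgi, read 217 in epithelium and -5 in fibers, at least 6.80-fold higher in epithelium, the widest bound among the Rab GTPases. It rests on 1 of 4 probes. The other 3 read between -3 and 1 on both arrays, and 1 of them is assigned to the same transcript as the bright probe. With the mean of the 4 probes the log2 bound was -0.74. Of 46 silent probes above the epithelium floor alone, 2 reached the bound of Rab43. Rab39 read 78 and 33, 2.36-fold higher in epithelium (log2 ratio -1.24), with the fibers value just above its floor of 32, and 7 of the 32 silent probes above both floors reached that ratio. Rab33b, a Golgi Rab that also acts in autophagy, read -3 and 46.5, a bound of 1.04-fold, and Rab39b 31 and 39.5, with no direction. The other 8 members, Rab18 among them (3 and 27), were below both floors.

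Of the Rabs with a role at the cilium or none of the above, Rab28 and Rab23 were measured. Rab28, a ciliary Rab known from the photoreceptor outer segment, read 108 in epithelium and 401 in fibers, 3.71-fold higher in fibers (log2 ratio 1.89, rank 114 of 2986). Its second probe gave the same direction, 11 and 150 (at least 3.37-fold), while a further one read 1 and 0, and it is the only Rab GTPase with 2 probes past 2-fold in the same direction. With housekeeping scaling its log2 ratio was 1.05. Of the 32 silent probes above both floors, 1 reached the ratio of Rab28. Rab23, an inhibitor of Hedgehog signalling, read 108 and 88 (-0.30). Rab24, Rab34, Rab40b, Rab40c and Rab42 were below both floors. A Rab34 probe other than the brightest read 52 and -5, at least 1.62-fold higher in epithelium; it was added with its values in view.

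The 36 Rab GTPases below both floors read from -8 to 39 in epithelium and from -5 to 32 in fibers. At this signal over background their levels could not be compared, and they were not shown to be absent. Of the 112 probes, 29 were above a floor. Of 12 measured Rab GTPases with several probes, 5 had 2 or more probes above a floor and 7 had 1. In those 7 the gene rests on 1 probe while its other probes lie in the background.

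**Figure D3:**
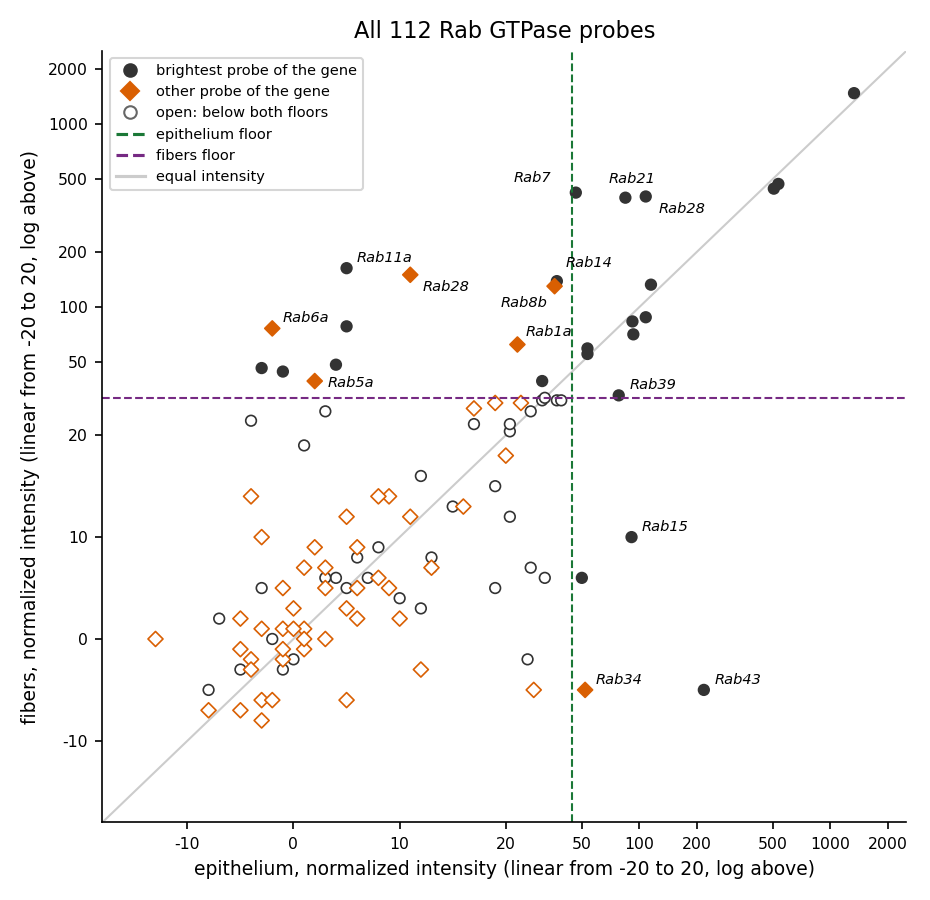
Normalized intensity of all 112 Rab GTPase probes in epithelium (x) and fibers (y), on axes linear near 0 and logarithmic above; dots are the brightest probe of a gene, diamonds its other probes, open symbols are below both floors (dashed lines). Named probes are those past 2-fold or other probes above a floor; both Rab28 probes lie above the line of equal intensity, while the bright Rab43 probe reads 217 in epithelium and -5 in fibers.

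Among the 11 genes that carry a Rab name and are no GTPase, 6 were measured. Rab3gap1, the catalytic subunit of the complex that switches off Rab3 and switches on Rab18, read 81.5 in epithelium and 294 in fibers, 3.60-fold higher in fibers (log2 ratio 1.85); a second probe read 2 on both arrays. Of the 5 Rab11 effectors named after it, 2 were measured, both higher in epithelium. Rab11fip1 read 92 and -6, at least 2.88-fold higher in epithelium, with 2 other probes between -10 and -8, and Rab11fip3 read 424 and 240, 1.77-fold higher in epithelium and so under 2-fold. Rab11fip2, Rab11fip4 and Rab11fip5 were below both floors. Rab26os, a non-coding RNA from the opposite strand at Rab26, read 754 and 228, 3.30-fold higher in epithelium, while Rab26 itself was below both floors at 19 and 15. Rab5if read 22 and 47.5, a bound of 1.07-fold, and Rab3ip, an exchange factor for Rab8, read 27 and 37, with no direction.

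Regulators and effectors of Rabs were counted by the same rules. Of 122 such genes on the array 56 were measured, 7 past 2-fold toward fibers and 8 toward epithelium, with a median log2 ratio of 0.00. Of all measured genes 15.6% and 19.0% lay that far. With housekeeping scaling 4 lay past 2-fold toward fibers and 21 toward epithelium, and the median was -0.23.

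The enzymes that attach the lipid anchor and GDI, which serve all Rabs, were measured in 4 of 7 cases, 3 of them as lower bounds, and 0 had a ratio or bound past 2-fold. Rabggtb, the catalytic subunit of geranylgeranyl transferase, read 97 and 98. The bounds were 1.28-fold for its partner Rabggta (14 and 57), 1.09-fold for the escort protein Chm (25 and 48.5) and 1.85-fold for Gdi2 (27 and 82.5), all in the direction of fibers; for Gdi2 the log2 bound was 0.05 with housekeeping scaling.

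Of 30 exchange factors 17 were measured, 1 past 2-fold toward each side (median 0.11). Both belong to TRAPP, the complex that switches on Rab1. Trappc4 read 50 and 152, 3.05-fold higher in fibers, though its second probe gave no direction, and Trappc3 read 71 and 2, at least 2.22-fold higher in epithelium. Rin3, an exchange factor of the Rab5 group, read 451 and 240 (log2 ratio -0.91), and Gapvd1, also of that group, 117 and 75 (-0.64).

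Of 30 GTPase-activating proteins 13 were measured, 1 past 2-fold toward fibers and 2 toward epithelium (median -0.30). Tbc1d22a, a TBC domain protein, read 488 and 1782, 3.65-fold higher in fibers (log2 ratio 1.87), and 1.03 with housekeeping scaling. Tbc1d10b, of the same domain family, read 103 and 34, 3.03-fold higher in epithelium, with the fibers value near the floor. Tbc1d10c read 65 and 31, at least 2.03-fold higher in epithelium, and Tbc1d25 57.5 and 5, at least 1.80-fold.

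Of 39 effectors 16 were measured, 4 past 2-fold toward fibers and 3 toward epithelium (median 0.00). Rilpl1, which binds Rab8 and Rab10, read 101 and 556, 5.50-fold higher in fibers (log2 ratio 2.46, rank 46 of 2986), and 1.62 with housekeeping scaling. Rbsn, rabenosyn-5, an effector of Rab4 and Rab5, read 39 and 168, at least 3.79-fold higher in fibers. Osbpl1a, a sterol-sensing effector of Rab7 on late endosomes, read 460 and 74, 6.22-fold higher in epithelium (log2 ratio -2.64, rank 41 from the bottom), and -1.57 on the log2 scale with the mean of its 5 probes. Plekhm1, a Rab7 effector in lysosome fusion, read 118 and 8, at least 3.70-fold higher in epithelium. The remaining effectors past 2-fold, chosen after their values were seen, were Bicd2, a dynein adaptor that binds Rab6 (49 and 129, 2.63-fold higher in fibers), Fyco1, a Rab7 effector of autophagosome transport (2 and 92, higher in fibers by at least 2.07-fold), and Exoc6, an exocyst subunit that binds Rab11 (104 and 11, at least 3.27-fold higher in epithelium). Ift22, formerly Rabl5, was the only measured Rab-like gene of 6, at 74 and -6, at least 2.31-fold higher in epithelium.

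The listed effectors and exchange factor of Rab7 were mixed in direction, and GTPase-activating proteins were not set beside them. Fyco1 was higher in fibers, Osbpl1a and Plekhm1 were higher in epithelium, and Rilp (27 and 28) and Vps41 (-5 and 10) were below both floors. Vps39 read 7 and 39.5, with no direction. Of its exchange factor, Mon1b read 81.5 and 66 (-0.30) and Ccz1 5 and 67, a bound of 1.51-fold toward fibers, while Mon1a was below both floors. These partners were set side by side after their values were seen.

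**Figure D4:**
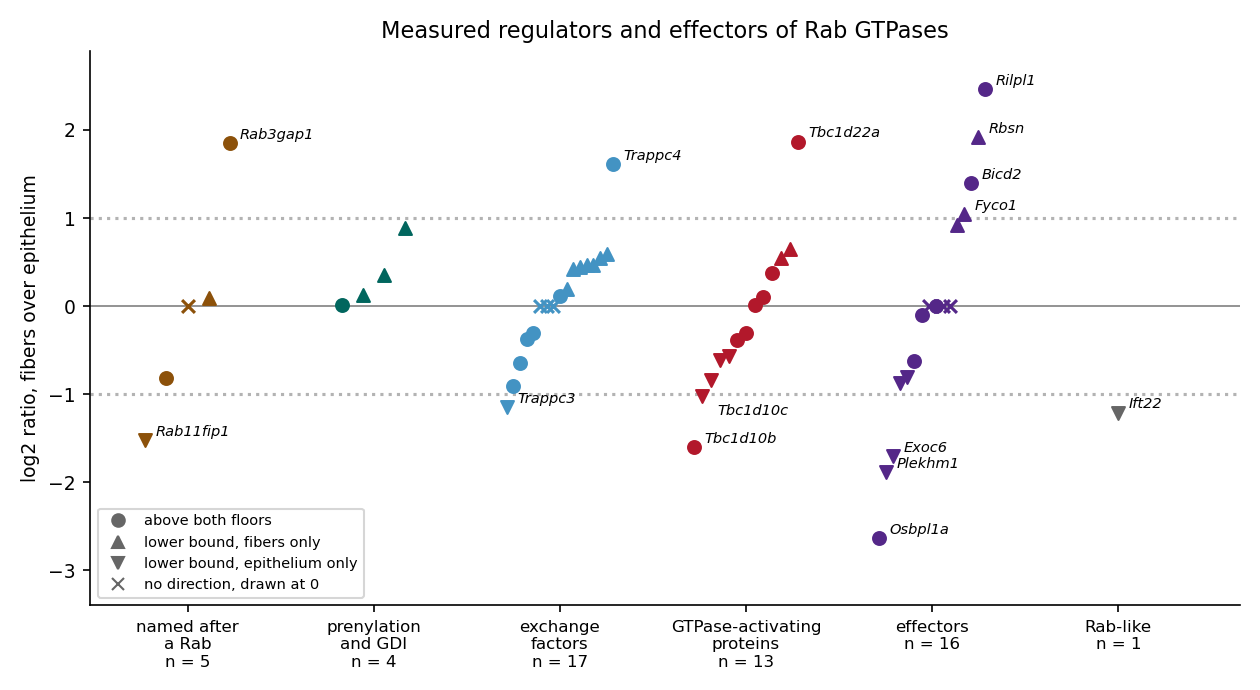
Log2 ratio of fibers over epithelium for the measured regulators and effectors by list (circles above both floors, triangles lower bounds, crosses without direction drawn at 0), with dotted lines at 2-fold and genes past it named. The values run from -2.64 for Osbpl1a to 2.46 for Rilpl1, both in the effector list; 3 of the 4 prenylation and GDI members are lower bounds.

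The 8 Rab GTPases past 2-fold differed in how far they depended on the processing. Rab7, Rab21 and Rab28 kept their direction and 2-fold under the 6 distinct alternatives that change the scaling, the floor or the averaging of probes (scaling to the 75th percentile equals the deposited values and is not counted). Rab11a and Rab43 kept their direction under 6 and 2-fold under 5 of them. Rab11a was at 0.56 with the higher floor, the 99th percentile of silent probes, and Rab43 at -0.74 with the mean of all probes. Rab15 had a value under 5 alternatives and kept 2-fold under each. Rab14 kept 2-fold under 3 of 6 and Rab39 under 3 of 5; Rab39 was at -0.81 with a common floor and -0.76 with no floor. The second brightest probe was above a floor for Rab28 alone among these genes, at 1.75. Not every alternative could change a value. Rab21, Rab11a, Rab15 and Rab39 have 1 probe, so the mean of all probes equals the reported value. The common floor raises the fibers floor only, so it left the genes past 2-fold toward fibers as they were.

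The counts over the family are read against all genes under each alternative as well. With housekeeping scaling 17.4% of the measured Rab GTPases lay past 2-fold toward fibers (4.56% of all genes) and 34.8% toward epithelium (42.8%). With a common floor these were 5 of 21 toward fibers, 23.8% (17.7% of all genes), and 2 toward epithelium (15.8%). With the 99th percentile floor they were 3 of 12, 25% (11.0%), and 1 (14.9%), and with no floor 9 of 59, 15.3% (7.43%), and 3 (7.38%). With the mean of all probes they were 4 of 19, 21.1% (14.0%), and 2 (16.1%), and with the second brightest probe 2 of 5 (13.6%) and 0 (15.9%). At 1.5-fold they were 6 of 23 (24.6%) and 4 (31.1%), and at 3-fold 5 of 23 (7.19%) and 1 (9.30%). The share toward fibers was above that of all genes in each of these settings, least so at 1.5-fold, with no test of the difference. These settings recount largely the same few genes on the same 2 arrays, so their agreement is not separate support. All 5 Rab GTPases past 2-fold toward fibers were also past 3-fold.

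**Figure D5:**
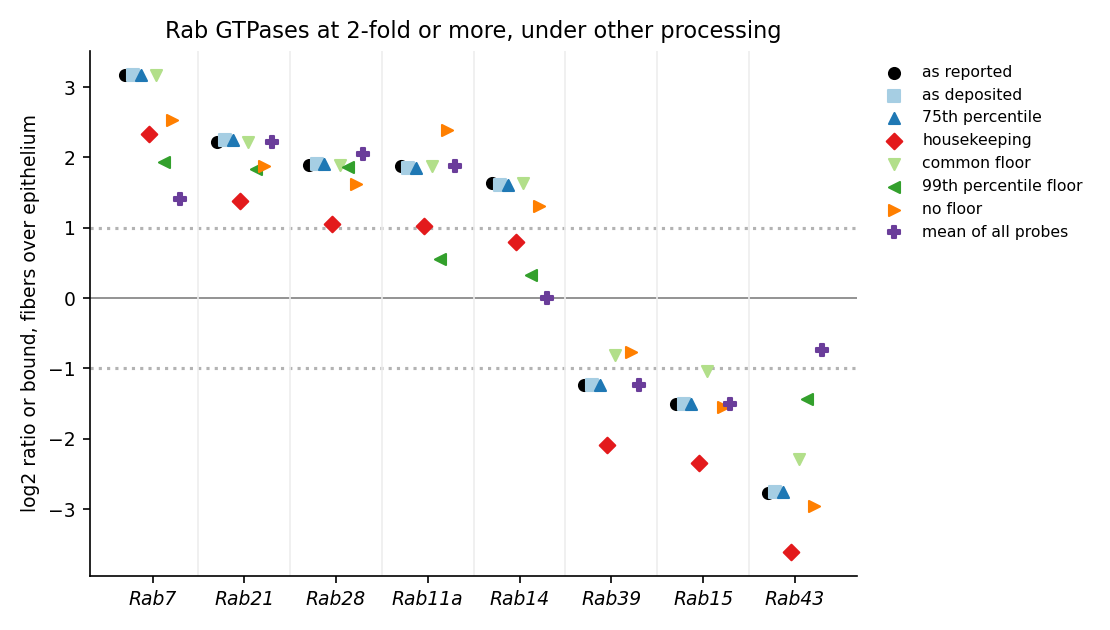
Log2 ratio or bound of fibers over epithelium for the 8 Rab GTPases past 2-fold, as reported and under 7 alternatives, of which the 75th percentile and the deposited values coincide, with dotted lines at 2-fold; a missing symbol is a gene below both floors under that alternative. Rab7, Rab21 and Rab28 stay above the upper line throughout, and Rab14 falls to 0 with the mean of its probes.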

How the data were processed

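Per the labels, RNA was labelled with biotin and read on a 1-colour Illumina array. The table the authors deposited holds a linear intensity for each of 45281 probes in both samples. All are whole numbers from -16 upward, with 38.0% (epithelium) and 38.7% (fibers) not above 0, which shows that background was subtracted; the sources used here do not say how, nor whether the arrays were scaled. Both were quantile normalized here, which hides any difference in total RNA. The platform annotation gives 34885 probes 1 gene symbol, 18 several and 10378 none, and all 70 genes of the rule were found in the reference gene table. Probe sequences were not used, so binding to paralogs was not checked.

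There was 1 array per group, so no test, p-value or SD between samples was made; the SD given is between probes of a gene. Genes are described by ratios, bounds and counts at 2-fold. A bound under 1 has no direction and enters a median as 0. The members, compartments and lists were chosen with earlier results of these data known. Every Rab GTPase above a floor is named, with up to 4 genes of each other list by the size of the log2 ratio. In all, 10 alternatives were tried, of which scaling to the 75th percentile gave the same values as no scaling. The steps were tested on simulated data and run in Python 3.11.15 with numpy 2.4.6 and pandas 2.3.3.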

Additional observations from a re-analysis of the deposited data

How the results depend on the processing

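With 1 array per group no replicate could be left out. No paired analysis was possible because each group has 1 array. Values as deposited, which scaling to the 75th percentile left as they were, changed no count or median of the Rab GTPases or of the regulators by more than the limits used (1.5 times for a count, the probe SD of 0.72 for a median).

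The number of Rab GTPases higher in fibers by 2-fold or more, 5, was 3 with the 99th percentile floor, 9 with no floor (log2 of the value plus 32) and 2 with the second brightest probe. The number higher in epithelium, 3, was 8 with housekeeping scaling, 1 with the 99th percentile floor, 0 with the second brightest probe and 1 at 3-fold. Of the regulators and effectors, 7 higher in fibers became 4 with housekeeping scaling, 3 with the 99th percentile floor, 11 with no floor, 0 with the second brightest probe and 11 at 1.5-fold. The 8 higher in epithelium became 21 with housekeeping scaling, 5 with a common floor, 1 with the 99th percentile floor, 3 with the second brightest probe, 4 with the mean of all probes, 16 at 1.5-fold and 4 at 3-fold. The higher floor and the second brightest probe leave fewer genes measured, and the other causes were not tested.

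The Rab median of 0.05 was -0.69 with housekeeping scaling and 0.78 with the second brightest probe. The secretory median of 0.09 was -0.71 and 1.55 under the same alternatives, and the early endosome median of 0.31 was -0.52 with housekeeping scaling. The late endosome value of 3.18, Rab7 alone, was 2.34 with housekeeping scaling, 1.93 with the 99th percentile floor, 1.41 with the mean of all probes and, as the median of 4 genes, 0.045 with no floor. The median of the cilium and autophagy group, 0.80, was -0.044 with housekeeping scaling, 0.00 with no floor and 2.05 with the mean of all probes. Of 254 values of the 46 named genes under the alternatives, 59 moved by more than 0.72. No gene past 2-fold as reported changed sign, while Rab8b went from -0.14 to 1.55 with the second brightest probe.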

Other observations

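The genes of Warburg Micro syndrome, a disorder with congenital cataract, were set side by side after their values were seen. Of Rab3gap1, Rab3gap2, Rab18 and Tbc1d20, Rab3gap1 was the only one above a floor. It read 81.5 in epithelium and 294 in fibers. Rab3gap2, the other subunit of the same complex, read 5 and -4, Rab18, the Rab it switches on, 3 and 27, and Tbc1d20, a GTPase-activating protein of Rab1 and Rab18, -4 and 31. The last 2 lay under the fibers floor of 32 by a small margin.

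Rabs of melanosomes and other lysosome-related organelles, Rab27a (37 and 31), Rab32 (4 and 6) and Rab38 (13 and 8), were below both floors. The pigment cell markers Tyr, Tyrp1, Dct, Mlana, Slc45a2, Oca2, Gpr143 and Trpm1 were below both floors as well, 8 of the 10 on the list. The other 2 were measured, Mitf at 64 and 76.5, above both floors, and Pmel at 56 and 11, above the epithelium floor.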
